A study of Homo sapiens with 18 samples.

Results

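Cells that divide switch on a block of genes in late S and G2 phase that build the mitotic spindle, attach chromosomes to it and drive the exit from mitosis. Of these, 50 were followed here across 18 RNA-seq libraries of the human leukaemia line THP1 and its subclone B11. The 50 genes were a list of symbols, and each was found once among the 60658 rows of the expression table. The rows were found by symbol alone, and the 50 genes were sorted by role into 8 groups.

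B11 is 1 clone of THP1, an acute myeloid leukaemia line of monocytic type. Per the labels, B11 carries a lentiviral, doxycycline-inducible NRAS with a G12V mutation and GFP, made resistant to CRISPR, and was then given Cas9, a puromycin resistance gene and a pair of guide RNAs aimed at either side of the NRAS start codon; its labels call it heterozygous NRAS-G12V, and those of THP1 give heterozygous NRAS-G12D. Both lines grew in RPMI medium with fetal bovine serum, and 9 plates of each were given 0, 1 or 10 ug/ml doxycycline for 5 days, 3 plates a dose, which makes 6 groups. The plates of a line were split from 1 culture, so the tests below measure only the spread between plates.

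The genes that peak in G2 and mitosis share a control system. The MuvB proteins sit at a promoter element called the cell cycle genes homology region (CHR). With the pocket proteins p107 and p130 and E2F4 they form the DREAM complex, which keeps these genes off in resting cells, and with B-MYB and FOXM1 they switch them on as cells approach mitosis. In mitosis the spindle checkpoint holds back the anaphase-promoting complex until every kinetochore is attached.

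RefSeq promoter windows of GRCh38.p14, from 250 bases before to 50 bases after a start site, were found for 43 of the 50 genes and searched on both strands for the CHR core (TTTGAA or TTCGAA) and the CCAAT box (CCAAT). The following 6 windows were chosen after the values were seen, to show the promoter beside the changes described below. Capitals mark the letters of the CHR core and of the CCAAT box on either strand. CCNB2 (chr15:59104896-59105195, plus strand) and PLK1 (chr16:23678639-23678938, plus strand) hold both motifs, each with a CHR core at base -29 from the start. KIF11 (chr10:92592880-92593179, plus strand), one of the genes that stood above THP1 in treated B11, has a CHR core at base -28 and a CCAAT box at base -53. CENPF (chr1:214602945-214603244, plus strand), the gene farthest below THP1 in B11 at 10 ug/ml, has its CHR core at base 41, after the start. AURKB (chr17:8210176-8210475, minus strand), the gene with the largest change, and CCNA2 (chr4:121823834-121824133, minus strand) hold a CCAAT box and neither of these CHR spellings. The AURKB window shown lies inside the gene, whose 5' end in GENCODE is at base 8210600. Other spellings of the CHR were not searched.
CCNB2: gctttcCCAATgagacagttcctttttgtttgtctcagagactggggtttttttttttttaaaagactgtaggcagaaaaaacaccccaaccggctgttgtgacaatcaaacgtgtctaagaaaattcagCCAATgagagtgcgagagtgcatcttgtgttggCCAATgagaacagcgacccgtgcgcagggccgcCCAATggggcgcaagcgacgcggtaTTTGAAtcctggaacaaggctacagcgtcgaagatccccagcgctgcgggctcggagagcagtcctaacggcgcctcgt
PLK1: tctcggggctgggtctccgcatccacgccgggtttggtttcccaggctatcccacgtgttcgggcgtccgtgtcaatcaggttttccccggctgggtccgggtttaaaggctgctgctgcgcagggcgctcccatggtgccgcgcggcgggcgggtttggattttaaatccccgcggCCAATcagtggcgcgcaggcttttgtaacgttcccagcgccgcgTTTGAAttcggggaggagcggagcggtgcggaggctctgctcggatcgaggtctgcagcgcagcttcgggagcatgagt
KIF11: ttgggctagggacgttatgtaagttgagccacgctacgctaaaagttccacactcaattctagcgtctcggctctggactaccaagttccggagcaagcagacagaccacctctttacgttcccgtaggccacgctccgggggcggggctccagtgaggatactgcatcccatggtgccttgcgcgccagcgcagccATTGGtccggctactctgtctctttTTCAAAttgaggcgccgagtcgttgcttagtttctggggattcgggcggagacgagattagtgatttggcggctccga
CENPF: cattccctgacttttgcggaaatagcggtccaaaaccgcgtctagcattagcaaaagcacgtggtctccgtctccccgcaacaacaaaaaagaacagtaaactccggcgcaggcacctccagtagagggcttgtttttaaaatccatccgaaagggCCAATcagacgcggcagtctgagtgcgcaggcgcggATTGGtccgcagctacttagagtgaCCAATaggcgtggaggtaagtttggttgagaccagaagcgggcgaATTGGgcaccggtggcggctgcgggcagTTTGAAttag
AURKB: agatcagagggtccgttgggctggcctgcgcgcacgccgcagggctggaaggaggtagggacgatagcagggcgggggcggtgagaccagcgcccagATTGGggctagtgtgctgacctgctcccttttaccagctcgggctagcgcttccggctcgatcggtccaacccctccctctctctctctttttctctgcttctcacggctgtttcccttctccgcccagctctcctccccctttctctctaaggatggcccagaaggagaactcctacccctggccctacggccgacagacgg
CCNA2: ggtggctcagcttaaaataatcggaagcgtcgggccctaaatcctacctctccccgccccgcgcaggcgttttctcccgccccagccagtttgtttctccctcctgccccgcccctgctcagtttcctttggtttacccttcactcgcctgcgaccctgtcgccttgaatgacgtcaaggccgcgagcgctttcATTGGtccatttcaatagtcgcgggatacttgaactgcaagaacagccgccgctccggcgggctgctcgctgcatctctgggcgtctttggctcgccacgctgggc

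The CHR core was in a window of 33 of the 43 genes (76.7%), against 15.4% of 10474 tested genes with a window. Counted by window, it was in 36 of the 55 windows of these genes, against 16.35% of 35116 windows. Windows on chromosome 8 were left out of all these counts. Within 50 bases of the start it was in 28 of the 43 (65.1%), against 4.86% of tested genes. The CCAAT box was in 34 of the 43 (79.1%), against 43.05% of tested genes, and 26 (60.5%) held both motifs, against 8.48%. In the narrower window the CCAAT box was in 9 of the 43 (20.9%), against 13.3%. An E2F motif (TTTCCCGC, TTTCGCGC, TTTGCCGC or TTTGGCGC) was in 4 of the 43 (9.30%), against 6.58%. The genes were listed for their role in mitosis, for which CHR elements are known, so these shares describe the list and were not tested.

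Levels are FPKM (fragments divided by transcript length and by library depth) as the authors' table gives them. Changes are differences of log2(FPKM + 1) from a fit of all 6 groups with limma, with their standard error (SE), and a gene was called changed at a p below 0.05 after Benjamini-Hochberg adjustment over all 17555 genes tested. All 50 genes passed the filter on low values, and 49 were at 1 FPKM or more in every library. Estimated depth was 10.97 to 15.996 M fragments a library. NRAS, the targeted gene, was at 20.95 ± 1.09, 23.8 ± 0.579 and 27.96 ± 0.219 FPKM in B11 at 0, 1 and 10 ug/ml, and at 23.3 ± 0.348, 23.4 ± 1.97 and 24.2 ± 0.505 FPKM in THP1 (SD, n = 3 each). The NRAS change in B11 at 10 against 0 ug/ml was 0.40 (SE 0.07, adjusted p = 0.00028), and the table's 1 value for the gene does not separate the transgene from the edited gene. The 9 myeloid markers summed to 1226 to 1571 FPKM in treated B11, 4057 to 5286 FPKM in untreated B11 and 1224 to 1626 FPKM in THP1. The 5 other marker lists summed to at most 18.1 FPKM in any library, and CD3E, CD3G, MS4A1, HBB and COL1A2 were at 0 in all 18.

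All of the block of mitotic genes but BUB3 was low in untreated B11 against THP1, and the whole block was higher in B11 given either dose. At 10 against 0 ug/ml all 50 genes rose and none fell, where 42.8% of all genes tested were called, 21.6% higher and 21.3% lower. The median change of the 50 was 2.35 on the log2 scale, against -0.02 over all genes tested, and 36 of them reached a fold of 4 or more on the FPKM + 1 scale. The smallest change was 0.82, of BUB3, and the largest 3.49, of AURKB. At 1 against 0 ug/ml all 50 rose as well, with a median of 2.35, where 37.1% of all genes were called, 19.8% higher and 17.3% lower. In every one of the 50 genes all 6 plates of treated B11 lay above all 3 plates of untreated B11, which was so for 18.3% of all genes tested.

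The 50 genes together summed to 3701 to 3827 FPKM in B11 at 10 ug/ml, 3838 to 3936 FPKM at 1 ug/ml and 727.6 to 815.5 FPKM in untreated B11, and THP1 libraries lay at 3894 to 4578 FPKM. In bulk RNA, fewer cells in G2 and mitosis and less RNA of these genes per cell cannot be told apart. Of the 9 myeloid markers, 4 (LYZ, CD68, CSF1R and CD33) had every B11 plate at 10 ug/ml below every untreated B11 plate, 2 (ITGAM and FCGR1A) had them above and 3 (SPI1, MPO and CD14) overlapped. LYZ and CD68, which averaged 294 and 504 FPKM in B11 at 10 ug/ml against 2781 and 1400 FPKM in untreated B11, made up most of the fall of the sum, and the 7 others summed to 454 to 470 FPKM against 609 to 652 FPKM. Mitochondrial genes took 2.485% to 4.02% of the FPKM sum in treated B11 and 4.375% to 5.58% in untreated B11, with 3.36% to 4.26% in THP1. The part of the myeloid and mitochondrial values in the results was not tested.

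**Figure D1:**
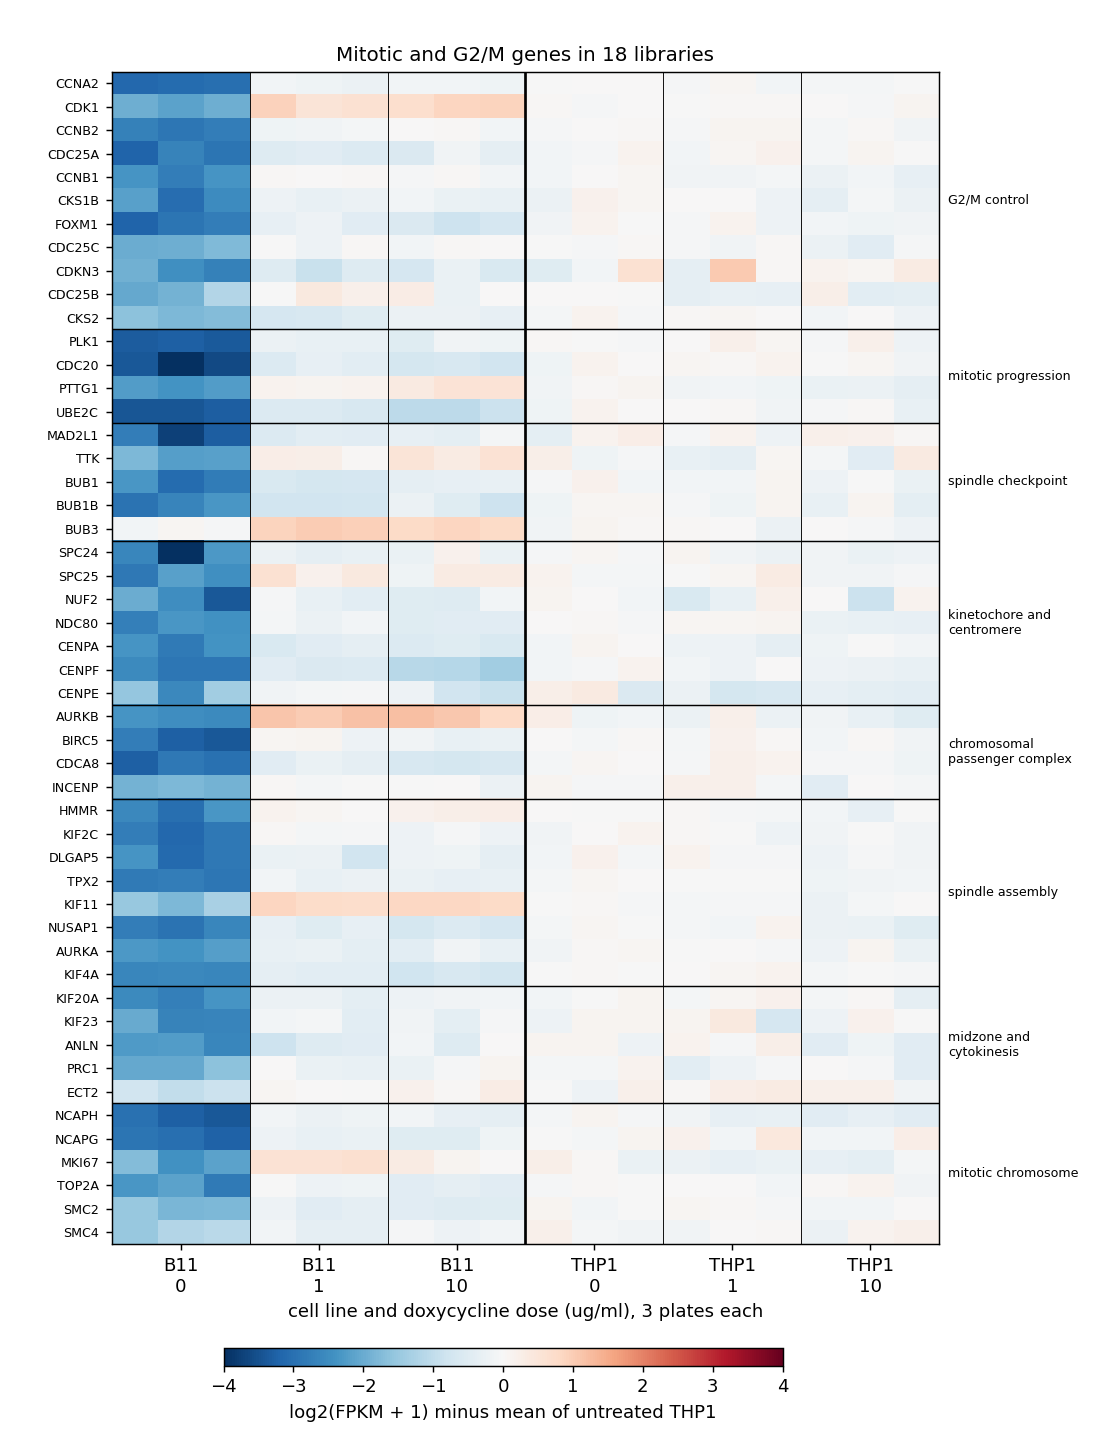
Level of each of the 50 genes (down the page, by role) in each of the 18 libraries (across, by line and doxycycline dose), as log2(FPKM + 1) minus the gene's mean in untreated THP1, from blue (lower) to red (higher). Untreated B11 is blue in every row but BUB3, and the 6 treated B11 plates lie near THP1, with AURKB, BUB3, CDK1, KIF11 and PTTG1 above it.

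Among the genes of G2/M control, all 11 rose in B11 at 10 against 0 ug/ml, by 1.47 to 2.94 on the log2 scale. CCNA2 encodes cyclin A2, which drives S phase and entry into mitosis, and its levels were 3.23, 3.36 and 3.59 FPKM in untreated B11, 33.3, 31.9 and 30.2 FPKM at 1 ug/ml and 33.2, 33.05 and 31.7 FPKM at 10 ug/ml. In THP1 the 9 plates ranged from 33.6 to 37.95 FPKM with a median of 35.2. The 6 treated B11 plates were far above the untreated ones and just under the lowest THP1 plate. The change at 10 ug/ml was 2.94 (SE 0.07, adjusted p = 3.8e-13).

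CKS2, a small subunit that helps CDK complexes bind phosphorylated proteins, had the smallest change of this group. It was at 35.2, 31.9 and 33.5 FPKM in untreated B11, 71.3, 72.2 and 80.8 FPKM at 1 ug/ml and 96.1, 96.9 and 90.7 FPKM at 10 ug/ml, with 98.5 to 124 FPKM in THP1. The 3 doses did not overlap, and every treated plate stayed below every THP1 plate. CKS2 changed by 1.47 (SE 0.07, adjusted p = 6.9e-10) with 10 ug/ml. The lower dose gave 1.13 (SE 0.07, adjusted p = 1.5e-08).

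The kinase CDK1, which with cyclin B starts mitosis, changed by 2.81 (SE 0.10, adjusted p = 1.7e-11) at 10 ug/ml. The B cyclins CCNB1 and CCNB2 changed by 2.47 and 2.77. Of the phosphatases that release CDK1 from inhibition, CDC25A changed by 2.58, CDC25C by 1.88 and CDC25B by 1.72. CDC25A was the lowest of the 50 genes in untreated B11, at 0.748 to 1.53 FPKM, against 9.86 to 13.6 FPKM in treated B11, so the added 1 FPKM shrinks its fold most. FOXM1, a transcription factor of the G2/M programme, was at 23.6 to 37.1 FPKM in treated B11 and 3.79 to 5.40 FPKM in untreated B11, a change of 2.28 (SE 0.12, adjusted p = 1.0e-09) at 10 ug/ml. CKS1B, the sister of CKS2, changed by 2.35, and CDKN3, a phosphatase that acts on CDKs, by 1.84. CDKN3 had a wide spread between plates, 77.1 to 227 FPKM in THP1, and an SE of 0.32.

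The 4 genes of mitotic progression had the highest median of the 8 roles, 2.86. PLK1, a kinase needed for centrosome maturation, spindle assembly and cytokinesis, was at 13.4, 13.9 and 12.98 FPKM in untreated B11, 122, 116 and 117 FPKM at 1 ug/ml and 102, 129 and 128 FPKM at 10 ug/ml. The THP1 plates lay between 124 and 166 FPKM with a median of 145. Treated and untreated B11 were far apart, and treated B11 overlapped the low end of THP1. The change at 10 ug/ml was 3.06 (SE 0.10, adjusted p = 8.7e-12), an 8.34-fold difference on the FPKM + 1 scale.

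UBE2C, the ubiquitin-conjugating enzyme that works with the anaphase-promoting complex, was at 10.4, 10.4 and 11.3 FPKM in untreated B11, 82.7, 83.5 and 76.9 FPKM at 1 ug/ml and 58.4, 58.8 and 65.8 FPKM at 10 ug/ml. The THP1 plates held 97.5 to 135 FPKM. Plates at 10 ug/ml lay between the untreated plates and those at 1 ug/ml, and no treated plate reached THP1. UBE2C changed by 2.40 (SE 0.10, adjusted p = 8.8e-11) with 10 ug/ml. The lower dose gave 2.81 (SE 0.10, adjusted p = 2.4e-11).

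CDC20, the activator of the anaphase-promoting complex that the checkpoint blocks, was the most abundant of the 50 genes in THP1, at 797 to 985 FPKM. It was at 517 to 706 FPKM in treated B11 and 55.3 to 84.7 FPKM in untreated B11, a change of 2.95 (SE 0.12, adjusted p = 8.1e-11) at 10 ug/ml. PTTG1 encodes securin, the inhibitor of separase whose destruction lets sister chromatids part. It was at 217 to 296 FPKM in treated B11, 37.3 to 42.5 FPKM in untreated B11 and 156 to 216 FPKM in THP1, so treated B11 lay just above THP1.

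The spindle checkpoint genes spanned the widest range of any role, 0.82 to 2.99. MAD2L1 encodes MAD2, which binds CDC20 while kinetochores are unattached. Its levels were 13.3, 6.28 and 8.85 FPKM in untreated B11, 64.8, 71.03 and 69.4 FPKM at 1 ug/ml, 75.1, 72.5 and 90.9 FPKM at 10 ug/ml and 71.7 to 115 FPKM in THP1. The untreated plates were uneven among themselves, and none came near a treated plate. The change at 10 ug/ml was 2.99 (SE 0.21, adjusted p = 2.1e-08).

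BUB3, a checkpoint scaffold protein that also has roles in interphase, was the exception of the block. It was at 92.6, 104 and 96.7 FPKM in untreated B11, 186, 199.9 and 191 FPKM at 1 ug/ml, 169, 181 and 169 FPKM at 10 ug/ml and 84.5 to 106 FPKM in THP1. Untreated B11 lay within the range of THP1, and every treated plate lay above both. For 10 against 0 ug/ml, BUB3 changed by 0.82 (SE 0.08, adjusted p = 1.5e-06). The kinase TTK, which starts checkpoint signalling at kinetochores, changed by 2.52, BUB1 by 2.40 and BUB1B, which encodes the checkpoint protein BUBR1, by 2.11.

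All 7 kinetochore and centromere genes rose, by 1.21 to 2.87. SPC24, a subunit of the NDC80 complex that grips microtubules, was at 6.17, 1.60 and 7.90 FPKM in untreated B11, 35.8, 33.2 and 34.2 FPKM at 1 ug/ml, 35.6, 48.3 and 35.05 FPKM at 10 ug/ml and 34.9 to 46.4 FPKM in THP1. Treated B11 overlapped THP1, and 1 untreated plate was well below the other 2. The change was 2.87 (SE 0.31, adjusted p = 2.6e-06) at 10 ug/ml. The 3 other subunits of the complex, SPC25, NUF2 and NDC80, changed by 2.66, 2.23 and 2.03.

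CENPE is a kinesin that carries chromosomes to the spindle equator. It was at 3.16, 1.05 and 3.64 FPKM in untreated B11, 9.91, 10.5 and 10.8 FPKM at 1 ug/ml, 9.57, 6.09 and 5.59 FPKM at 10 ug/ml and 6.40 to 14.4 FPKM in THP1. Its treated and untreated plates did not overlap, but the gap at 10 ug/ml was small beside the spread. At 10 ug/ml the change was 1.21 (SE 0.29, adjusted p = 0.0036), and it was not called when only those 2 groups were fitted (adjusted p = 0.054). CENPA, the histone variant that marks centromeres, changed by 1.97, and CENPF, a large protein of the outer kinetochore, by 1.57.

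In the chromosomal passenger complex, which corrects faulty attachments and then guides cytokinesis, the 4 subunits rose by 1.79 to 3.49. AURKB, the kinase of the complex, was at 8.84, 8.06 and 7.59 FPKM in untreated B11, 107, 101 and 112 FPKM at 1 ug/ml, 115, 106 and 86.7 FPKM at 10 ug/ml and 34.98 to 59.3 FPKM in THP1. Here the treated plates lay above every THP1 plate. The change at 10 ug/ml was 3.49 (SE 0.14, adjusted p = 8.8e-11), an 11.3-fold difference on the FPKM + 1 scale.

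INCENP, the scaffold that activates AURKB, was at 11.9, 12.7 and 11.99 FPKM in untreated B11, 48.1, 44.7 and 46.6 FPKM at 1 ug/ml, 46.4, 47.5 and 40.02 FPKM at 10 ug/ml and 33.9 to 53.97 FPKM in THP1. Treated B11 lay inside the THP1 range. The change at 10 ug/ml was 1.79 (SE 0.11, adjusted p = 9.1e-09). BIRC5, which encodes survivin, changed by 2.90 and CDCA8, which encodes borealin, by 2.36.

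Genes of spindle assembly rose by 1.86 to 2.87, all 8 of them. HMMR, a microtubule-binding protein of the spindle poles, was at 6.20, 4.26 and 7.46 FPKM in untreated B11, 46.6, 43.8 and 41.9 FPKM at 1 ug/ml, 46.96, 49.2 and 50.5 FPKM at 10 ug/ml and 33.4 to 42.8 FPKM in THP1. The plates at 10 ug/ml were above all THP1 plates, and those at 1 ug/ml overlapped the top of THP1. The change was 2.87 (SE 0.13, adjusted p = 2.4e-10) at 10 ug/ml.

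KIF4A, a chromosome-bound kinesin, was at 1.87, 1.92 and 1.88 FPKM in untreated B11, 12.7, 12.1 and 12.1 FPKM at 1 ug/ml, 9.01, 10.1 and 9.38 FPKM at 10 ug/ml and 15.5 to 18.4 FPKM in THP1. All 3 doses were separate, and no treated plate reached THP1. KIF4A changed by 1.86 (SE 0.08, adjusted p = 1.2e-10) with 10 ug/ml. The lower dose gave 2.20 (SE 0.08, adjusted p = 2.6e-11). KIF11, the motor that pushes spindle poles apart, was at 11.9 to 13.3 FPKM in treated B11, 1.26 to 2.24 FPKM in untreated B11 and 5.73 to 7.18 FPKM in THP1. AURKA and its activator TPX2, which organise the spindle poles, changed by 2.02 and 2.53, the microtubule depolymerase KIF2C by 2.77, and the spindle proteins DLGAP5 and NUSAP1 by 2.54 and 2.13.

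At the midzone, where the cleavage furrow is set, all 5 genes rose, by 1.03 to 2.39. KIF20A, a kinesin of the central spindle, was at 7.70, 6.55 and 8.92 FPKM in untreated B11, 41.8, 42.2 and 37.3 FPKM at 1 ug/ml, 43.01, 44.6 and 45.4 FPKM at 10 ug/ml and 37.99 to 55.4 FPKM in THP1. Treated B11 overlapped the lower part of THP1. The change was 2.39 (SE 0.12, adjusted p = 5.2e-10) at 10 ug/ml.

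ECT2, the exchange factor that turns on RhoA at the furrow, was at 8.15, 6.86 and 7.51 FPKM in untreated B11, 15.2, 14.5 and 14.2 FPKM at 1 ug/ml, 16.5, 14.8 and 18.02 FPKM at 10 ug/ml and 12.3 to 18.3 FPKM in THP1. Its plates at 1 and 10 ug/ml overlapped each other and THP1. The change was 1.03 (SE 0.13, adjusted p = 1.3e-05) at 10 ug/ml. The bundling protein PRC1 changed by 1.85, the kinesin KIF23 by 2.25 and the furrow scaffold ANLN by 2.18.

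The 6 genes of the mitotic chromosome rose by 1.14 to 2.93. NCAPH, a subunit of condensin I, was at 7.26, 5.89 and 5.32 FPKM in untreated B11, 59.7, 54.4 and 57.8 FPKM at 1 ug/ml, 59.4, 50.9 and 50.2 FPKM at 10 ug/ml and 46.6 to 69.7 FPKM in THP1. Treated B11 lay within the THP1 range. The change at 10 ug/ml was 2.93 (SE 0.10, adjusted p = 1.5e-11), and NCAPG, of the same complex, changed by 2.69.

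SMC4 and SMC2 form the core of both condensins and are also expressed in interphase. SMC4 was at 67.9, 85.8 and 91.6 FPKM in untreated B11, 181, 152 and 154 FPKM at 1 ug/ml, 189.7, 171 and 179 FPKM at 10 ug/ml and 164 to 225 FPKM in THP1, and changed by 1.14 (SE 0.13, adjusted p = 5.3e-06) at 10 ug/ml. The treated plates did not overlap the untreated ones and lay in the lower part of THP1 or below it. SMC2 changed by 1.22, the topoisomerase TOP2A by 2.01, and MKI67, which encodes the proliferation marker Ki-67, by 2.26.

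Genes whose exons overlap a neighbour could hold its reads, since the sources used here do not say whether the libraries keep strand; in GENCODE, 16 of the 50 overlap an exon on the other strand and 4 one on the same strand, among them PRC1 (3181 bases) and NUSAP1 (1787 bases) on the same strand and SMC4 (2168 bases) and NCAPG (1631 bases) on the other. Of the 50, 11 have named pseudogenes, SMC4 and NCAPG again among them. CKS1B has 6 and UBE2C 4, and reads could be split among these copies.

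THP1 given the same doses tested whether doxycycline itself moved these genes in the parent line. None of the 50 was called in THP1 at 10 against 0 ug/ml, where limma called 1.02% of all genes (0.0968% higher and 0.923% lower), and 8 (16%) had an unadjusted p below 0.05, against 10.5% of all genes. The calls over all genes, 179, were 67 and 69 without the untreated THP1 plate B or C and 46 when only those 2 groups were fitted. The changes of the 50 ran from -0.42 to 0.19 with a median of -0.11, and 43 of the 50 were below 0. Over all genes tested the median was 0, and 8715 of 17555 were below 0. The smallest p was that of NCAPH, which was at 46.6, 51.8 and 46.6 FPKM in THP1 at 10 ug/ml and 61.6, 69.7 and 63.2 FPKM in untreated THP1, a difference of -0.42 (SE 0.10, adjusted p = 0.071). Leaving out the untreated THP1 plate A gave 1 call, lower, and leaving out the untreated B11 plate A gave 2. The B11 plate is in neither group and enters through the filter on low values and the shared spread. At 1 against 0 ug/ml none was called, where 0.0114% of all genes were (0.0057% higher and 0.0057% lower), 2 (4%) had an unadjusted p below 0.05 against 5.46% of all genes, and the median was -0.03.

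The response of B11 exceeded that of THP1 in all 50 genes at both doses. The difference of the responses at 10 against 0 ug/ml ranged from 0.90 for BUB3 to 3.80 for AURKB, with a median of 2.51, and all 50 were called higher, where 29.8% of all genes were called, 16% higher and 13.8% lower. At 1 against 0 ug/ml it ranged from 0.67 for ECT2 to 3.65 for AURKB, with a median of 2.38, and all 50 were again called higher, where 25.9% of all genes were called, 14.3% higher and 11.6% lower. At 1 ug/ml CDKN3 lost its call in 10 of 28 settings, 7 of them with 1 library left out (adjusted p up to 0.086 over the 10), and ECT2 lost it in 1, without the B11 plates B and C at 1 ug/ml (adjusted p = 0.058). The untreated plates of each line enter both differences.

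**Figure D2:**
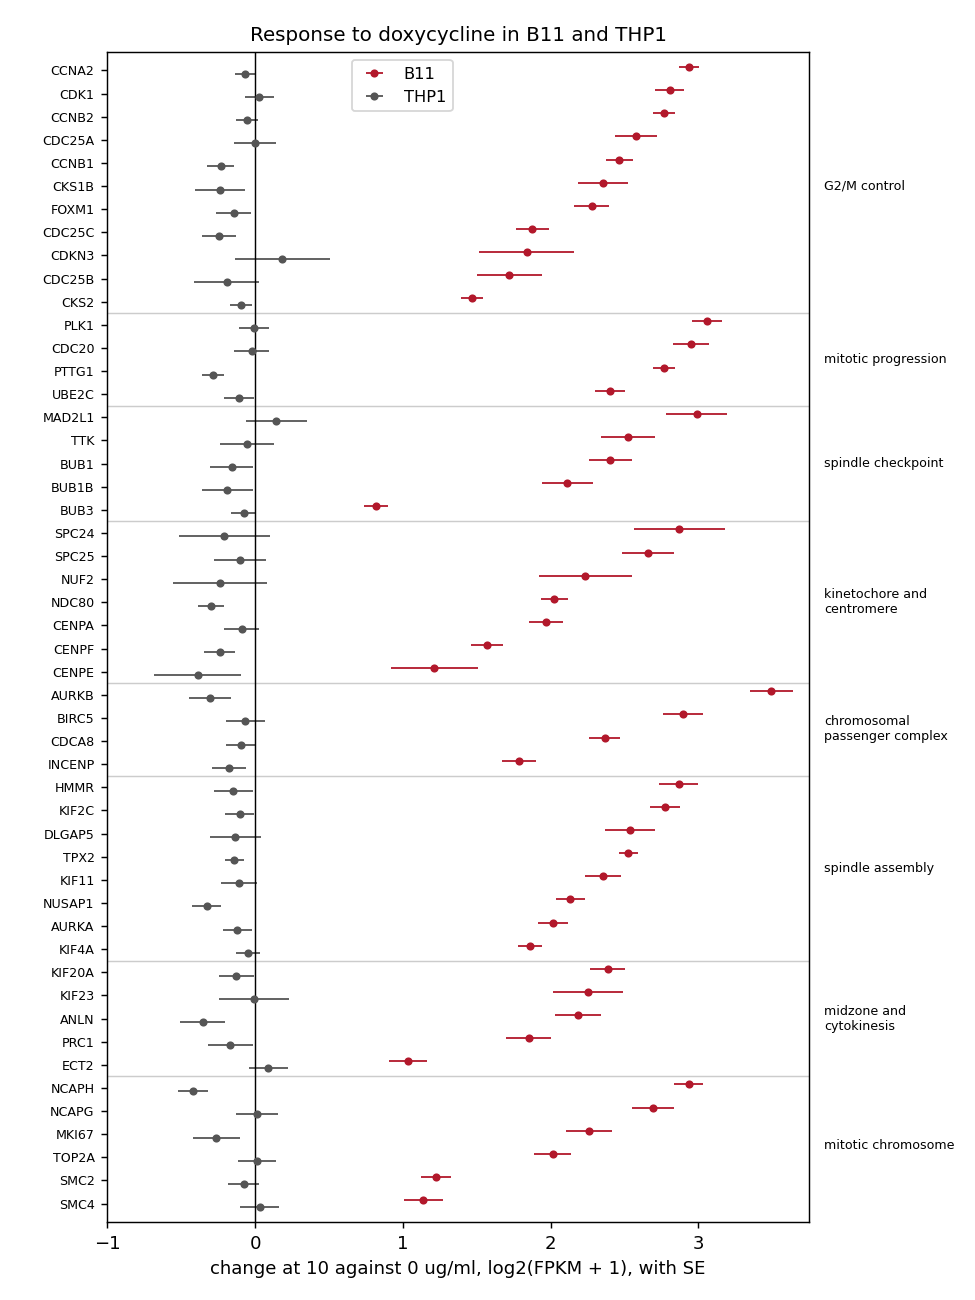
Change at 10 against 0 ug/ml doxycycline for each of the 50 genes (down the page, by role) on the log2(FPKM + 1) scale, in B11 (red) and in THP1 (grey); points are fitted differences of 3 against 3 plates and bars their SE. The B11 points run from 0.82 to 3.49 and the THP1 points from -0.42 to 0.19, with no overlap between the lines.

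Untreated B11 was set against untreated THP1 to ask how far the block was down in the clone without doxycycline. Of the 50 genes, 49 were lower and none higher, where 47.1% of all genes tested were called, 23.5% higher and 23.6% lower. The median difference was -2.53, and CDC20 stood farthest apart at -3.66 (SE 0.12, adjusted p = 7.1e-12), with 55.3 to 84.7 FPKM in untreated B11 and 797 to 985 FPKM in all THP1 plates. UBE2C followed at -3.38 and PLK1 at -3.32. The smallest called differences were those of ECT2 at -0.86 and SMC4 at -1.26. BUB3 differed by -0.02 (SE 0.08, adjusted p = 0.87). In 49 genes, all but BUB3, the 3 untreated B11 plates lay below all 9 THP1 plates, which was so for 20.2% of all genes.

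Treated B11 was next set against THP1 at equal dose. At 10 ug/ml 7 of the 50 genes were higher in B11 and 10 lower, 34% in all, a share near the 32.4% called among all genes (16.4% higher and 16% lower), so the count sets these genes apart from no others. The median difference was -0.15. At 1 ug/ml 6 were higher (12%) and 17 lower (34%), 46% in all, with a median of -0.19. Of all genes 29.8% were called at that dose, 15% higher and 14.8% lower. The 2 comparisons share no library, but both set the same clone against the same parent line with 1 shared estimate of the spread. The share of all genes called the same way at both doses was not worked out, so the overlaps below have no background. Called higher at both doses were AURKB, BUB3, CDK1, KIF11 and PTTG1, which make 83.3% of the genes higher at 1 ug/ml and 71.4% of those higher at 10 ug/ml. CDC20, CDCA8, CENPF, KIF4A, NUSAP1, SMC2 and UBE2C were called lower at both, 41.2% of those lower at 1 ug/ml and 70.0% of those lower at 10 ug/ml, and none was called in opposite directions. Without the B11 plates B and C at 1 ug/ml, that group held 1 plate, which weakens the test of every gene. Of the genes called at both doses in the full fit, PTTG1, CENPF, NUSAP1 and SMC2 were not called with that 1 plate. They then differed by 0.27, -0.34, -0.31 and -0.23 at 1 ug/ml, against 0.27, -0.42, -0.37 and -0.36 in the full fit.

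The 5 genes called higher at both doses play parts in different machines. At 10 ug/ml AURKB exceeded THP1 by 1.34 (SE 0.14, adjusted p = 5.2e-06), and at 1 ug/ml the excess was 1.18 (SE 0.14, adjusted p = 2.1e-05). Its partners INCENP and BIRC5 differed from THP1 at 10 ug/ml by 0.10 (adjusted p = 0.53) and -0.17 (adjusted p = 0.36) and CDCA8 was lower by -0.57 (adjusted p = 0.00063). CDK1 was at 68.2, 77.2 and 78.9 FPKM in B11 at 10 ug/ml, against 43.2, 40.9 and 46.03 FPKM in THP1 at 10 ug/ml. That is a difference of 0.77 (SE 0.10, adjusted p = 2.5e-05), and no plate of the 2 lines overlapped. Its cyclin partners CCNB1 and CCNB2 were not called at this dose, with differences of 0.20 and 0.04. KIF11 was at 13.01, 13.2 and 12.5 FPKM in B11 and 5.73, 6.46 and 6.94 FPKM in THP1 at 10 ug/ml, a difference of 0.92 (SE 0.12, adjusted p = 3.8e-05). PTTG1 was at 259, 296 and 292 FPKM in B11 and 168, 173 and 156 FPKM in THP1, both at 10 ug/ml, a difference of 0.76 (SE 0.07, adjusted p = 1.8e-06). At 1 ug/ml PTTG1 was higher by 0.27 (SE 0.07, adjusted p = 0.013). The excess of BUB3 over THP1 was 0.88 at 10 ug/ml, and 1.01 at the lower dose. In these 5 genes all 6 treated B11 plates lay above all 9 THP1 plates, which was so for 9.67% of all genes tested. The 5 make 10% of the 50, a share at the background, and their values describe single genes.

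At 10 ug/ml TTK (0.53, adjusted p = 0.039) and HMMR (0.36, adjusted p = 0.044) were also called higher, but HMMR lost its call in 19 of 28 alternative settings and TTK in 8. MKI67 was called higher at 1 ug/ml, at 39.1, 39.5 and 41.5 FPKM in B11 against 22.04, 20.5 and 21.4 FPKM in THP1. At 10 ug/ml MKI67 was at 33.1, 27.95 and 26.4 FPKM in B11 and 20.6, 19.7 and 24.7 FPKM in THP1, a difference of 0.41 (SE 0.16, adjusted p = 0.059) that missed the threshold.

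The 10 genes called lower than THP1 at 10 ug/ml make 20% of the 50, near the 16% of all genes tested, and their values describe single genes. They included a kinetochore protein and a pair of factors of the anaphase-promoting complex. CENPF was at 30.7, 30.2 and 25.1 FPKM in B11 and 58.9, 57.5 and 54.3 FPKM in THP1 at 10 ug/ml, a difference of -0.97 (SE 0.11, adjusted p = 6.5e-06). UBE2C differed by -0.87 (SE 0.10, adjusted p = 8.9e-06) and CDC20 by -0.68 (SE 0.12, adjusted p = 0.00046). CDC20 was at 551, 565 and 517 FPKM in B11 and 886, 945 and 800.0 FPKM in THP1 at that dose. KIF4A differed by -0.68, CDCA8 by -0.57, FOXM1 by -0.55, CENPA by -0.46, TOP2A by -0.43, SMC2 by -0.41 and NUSAP1 by -0.31. NUSAP1 and TOP2A each lost the call when any of 4 plates was left out, namely B11 A or C or THP1 A or B at 10 ug/ml. Of the 50 genes, 13 (26%) had all 6 treated B11 plates below all 9 THP1 plates, against 8.94% of all genes tested.

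At 1 ug/ml the largest called deficits were those of BUB1B at -0.73, ANLN at -0.70 and CKS2 at -0.64. At 10 ug/ml these genes differed from THP1 by -0.33, 0.16 and -0.16, and none was called. CDKN3 had the lowest value of the 50 at 1 ug/ml, -0.88, but with an SE of 0.32 it was not called (adjusted p = 0.052). Of the others called lower at 1 ug/ml, AURKA, KIF20A, NCAPG and TPX2 lost the call in 7 to 9 of the 28 settings, in each case with single B11 or THP1 plates at 1 ug/ml left out among them. SMC2 lost it in 4, which included leaving out B11 plate B or C or THP1 plate A at 1 ug/ml, and NUSAP1 and PLK1 in 2 each, which included leaving out THP1 plate C for NUSAP1 and THP1 plate B for PLK1. Among genes not called at 10 ug/ml, the difference of CCNB2 had a 95% interval of -0.12 to 0.20, that of CCNA2 -0.22 to 0.08 and that of SPC24 -0.57 to 0.75.

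**Figure D3:**
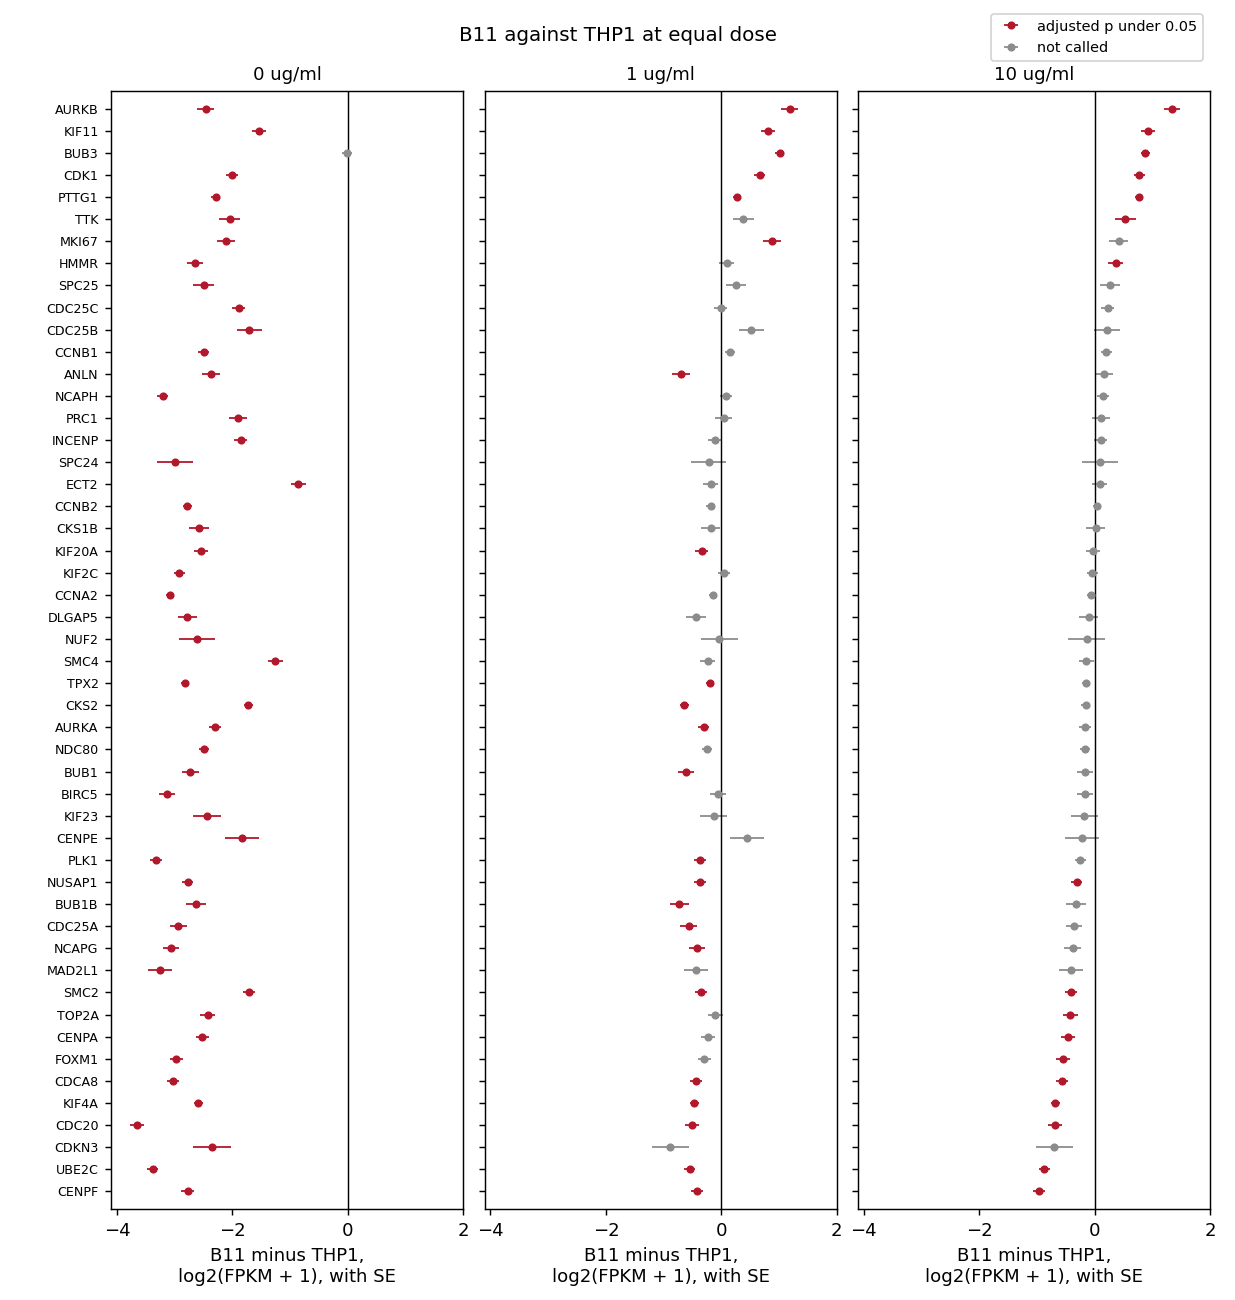
Difference of B11 minus THP1 at equal doxycycline dose (0, 1 and 10 ug/ml, left to right) for each of the 50 genes on the log2(FPKM + 1) scale; points are fitted differences of 3 against 3 plates, bars their SE, and red marks an adjusted p under 0.05. At 0 ug/ml all genes but BUB3 are called lower, and at 1 and 10 ug/ml the differences lie between -0.97 and 1.34.

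The doses were compared within B11. At 10 against 1 ug/ml, 2 of the 50 were higher and 4 lower, 12% in all, a share near the 12.8% called among all genes tested (5.69% higher and 7.12% lower). The 2249 calls over all genes were 1475 without the B11 plate C at 10 ug/ml, 1478 without plate C at 1 ug/ml and 601 without plates B and C at 1 ug/ml. CENPF was lower at 10 ug/ml by -0.68 (SE 0.11, adjusted p = 0.00074), with 30.7, 30.2 and 25.1 FPKM at 10 ug/ml and 48.9, 44.6 and 45.5 FPKM at 1 ug/ml. UBE2C (-0.40), KIF4A (-0.34) and NDC80 (-0.32) were also lower, of which NDC80 lost its call in 7 of 28 settings and UBE2C in 4. PTTG1 (0.35, adjusted p = 0.0061) and CKS2 (0.34, adjusted p = 0.0076) were higher. The median over the 50 genes was -0.03. Leaving out the untreated B11 plate A gave 10 calls, and leaving out the B11 plates B and C at 1 ug/ml, in which an unnamed gene ID took 6.51% and 3.76% of the FPKM sum, left 1.

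**Figure D4:**
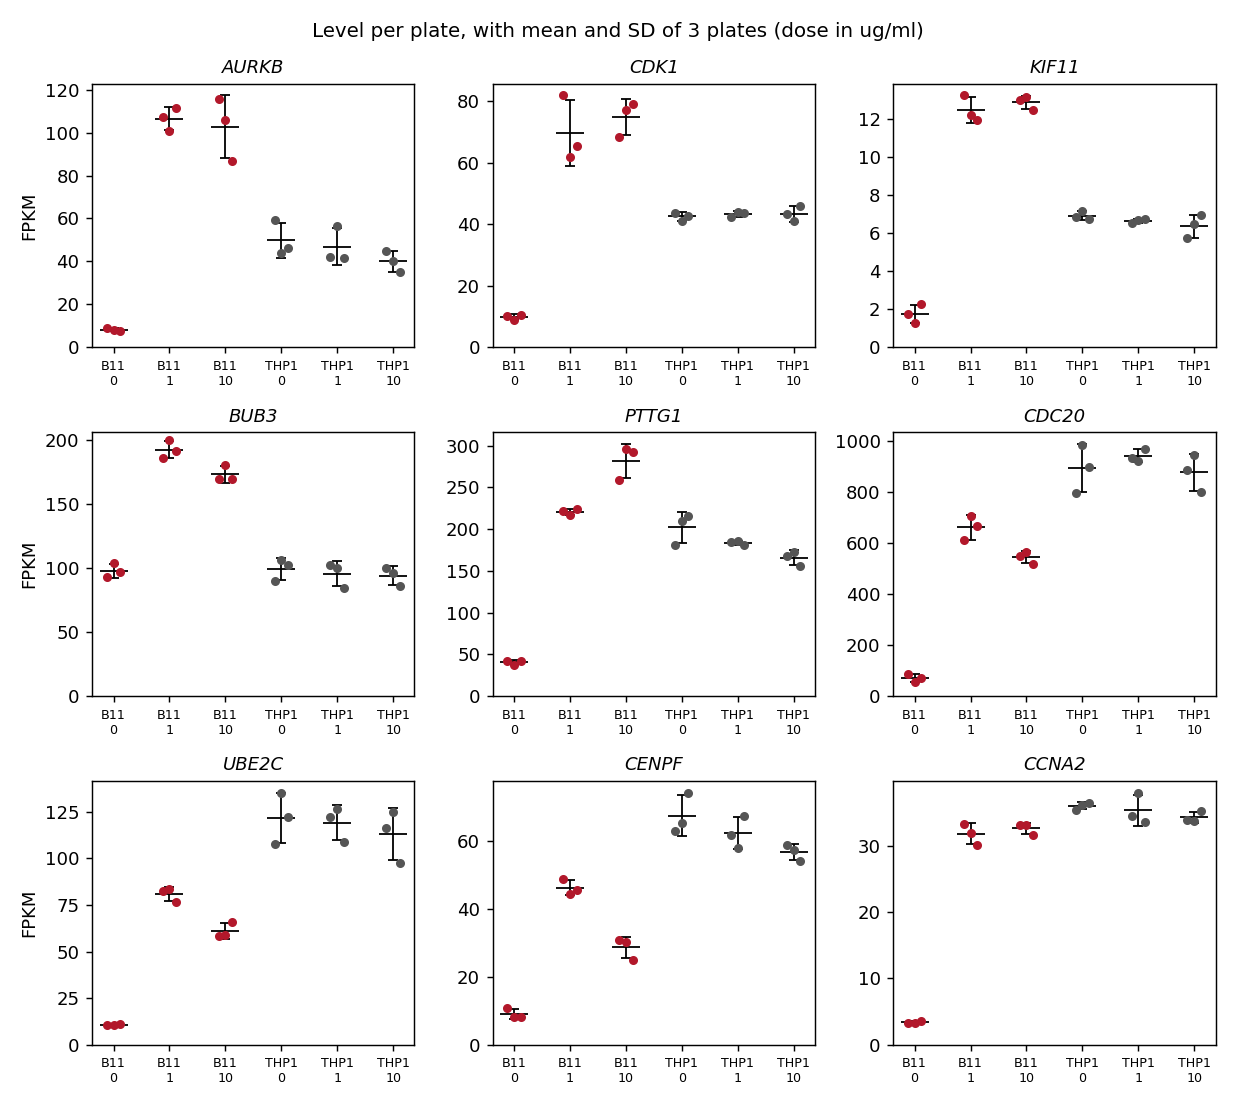
FPKM per plate for 9 of the genes in B11 (red) and THP1 (grey) at 0, 1 and 10 ug/ml doxycycline, with the mean and SD of 3 plates; each panel's axis starts at 0. AURKB, CDK1, KIF11, BUB3 and PTTG1 in treated B11 lie above THP1, CDC20, UBE2C and CENPF below it, and CCNA2 just under it.

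Other cell cycle genes gave a setting for the 50. Of 55 further mitotic genes 51 rose and none fell in B11 at 10 against 0 ug/ml, with a median change of 2.02; they included the kinesins KIF18B (2.82, SE 0.11, adjusted p = 4.6e-11) and KIFC1 (2.61) and the G2 protein GTSE1 (2.39). The 4 that did not pass were MIS12, KIF22, PMF1 and NSL1. Of 35 S phase genes 34 rose and none fell, with a median of 1.80. RRM2, of the enzyme that makes deoxynucleotides, changed by 3.73, the licensing factor CDT1 by 3.49 and the helicase subunit MCM2 by 2.62. RRM2 was at 76.9 ± 5.07 FPKM in B11 at 10 ug/ml and 4.95 ± 1.32 FPKM in untreated B11 (SD, n = 3 each).

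Lists of the machinery that these genes act with were read against the same background, 21.6% of all genes called higher and 21.3% lower. Of 17 genes of the anaphase-promoting complex and its enzymes 6 rose (35.3%) and 3 fell (17.6%), with a median of -0.05. UBE2S, the enzyme that extends its ubiquitin chains, changed by 3.35 (SE 0.15, adjusted p = 2.5e-10), whereas the catalytic subunits ANAPC11 and ANAPC2 changed by 0.67 and -0.60. Of 9 cohesin genes 4 rose (44.4%) and 1, NIPBL, fell (11.1%), with a median of 0.32; SMC3, RAD21 and SMC1A, all of the ring that holds sister chromatids, changed by 0.93, 0.94 and 0.83.

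Of 12 DREAM and MuvB genes 7 rose (58.3%) and 1 fell (8.33%), with a median of 0.64. MYBL2, which encodes B-MYB, was at 80.6 ± 3.47 FPKM in B11 at 10 ug/ml, 5.57 ± 1.86 FPKM in untreated B11 and 106 ± 6.70 FPKM in THP1 at 10 ug/ml (SD, n = 3 each), and its change between those B11 groups was 3.68 (SE 0.15, adjusted p = 8.8e-11). The MuvB subunit LIN9 changed by 1.24 and the E2F partner TFDP1 by 0.77. The gene that fell was RBL2, which encodes p130, by -0.62 (adjusted p = 6.2e-05). In THP1 at 10 against 0 ug/ml limma called none of the genes of these 5 lists, where it called 1.02% of all genes. Of all genes tested, 10.5% had an unadjusted p below 0.05 there. Among the other mitotic genes 11 of 55 (20%) had one, and among the S phase genes 4 of 35 (11.4%). The anaphase-promoting complex had 1 of 17 (5.88%), DREAM and MuvB 1 of 12 (8.33%) and cohesin 0 of 9.

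The changes at 10 ug/ml were last set beside the promoter motifs. The 33 with a CHR core had a median change of 2.18, from 1.03 to 3.06. The 10 without either spelling in the windows searched, AURKB and CCNA2 among them, had a median of 2.77, from 1.21 to 3.49. Genes with another spelling or a start site outside these windows would count among the 10. The 34 with a CCAAT box had a median of 2.38 and the 9 without one 2.11. These medians come from genes of the same libraries and were not tested.

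**Figure D5:**
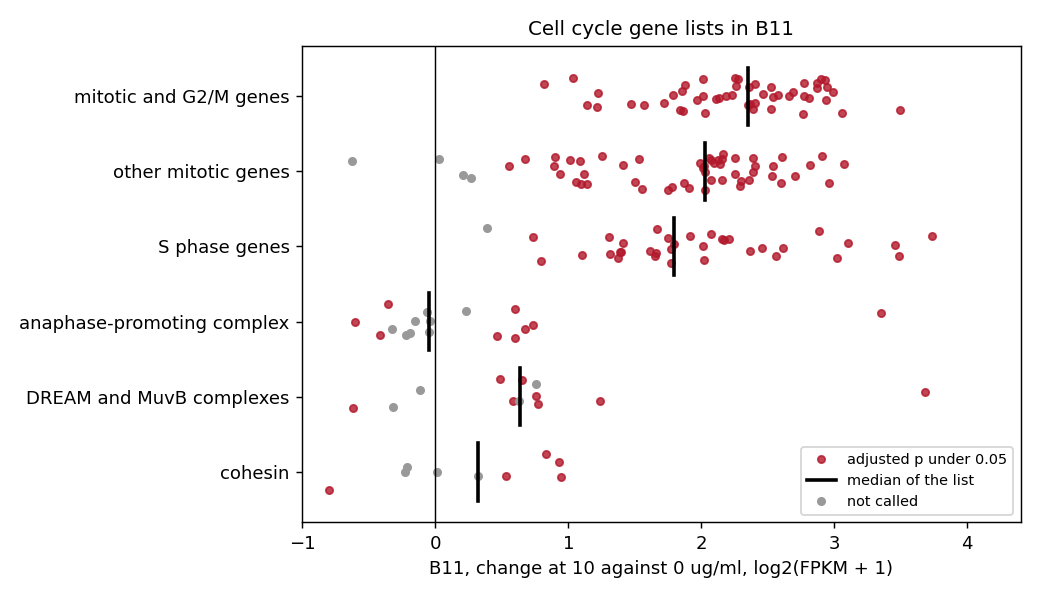
Change in B11 at 10 against 0 ug/ml doxycycline on the log2(FPKM + 1) scale for the 50 mitotic and G2/M genes and 5 other lists; each point is 1 gene, red where called, and black bars are medians. The 50 genes and the lists of other mitotic and S phase genes have medians of 2.35, 2.02 and 1.80, and the 3 lists of complexes have medians of -0.05 to 0.64.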

How the data were processed

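RNA was measured by sequencing in 18 libraries, 1 per plate, of B11 and THP1 at 3 doxycycline doses. The deposited table holds 1 FPKM value per gene and library, made by the authors with HISAT2 and Cuffnorm on GRCh38 per the submitters' processing notes; the sources used here give no versions. Its header names no unit: FPKM was inferred from the tool and from the values, and counts are not used here. The submitters' scaling acts on all genes of a library, so a large shift of the rest of the transcriptome would move every level.

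Row IDs were named with GENCODE 29 (57047 of 60658, with 3611 left unnamed). Genes at 1 FPKM or more in at least 3 of the 18 libraries were tested on log2(FPKM + 1) with limma 3.58.1 (trend; R 4.3.3), with 6 group means, 12 residual degrees of freedom and Benjamini-Hochberg adjustment within each of 10 comparisons; the fit was tested on simulated data. Fold changes on this scale understate those of low genes. Depth was estimated from the steps between low values, of which 73.4% to 79.4% lay within 0.1 of a whole number of fragments; the counting error of single values was not modelled. Labels give no batch, and libraries with the same replicate letter did not deviate together, so no pairing was used.

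All 50 genes are named. Values per plate are given for the largest and smallest change of each role and, after the values were seen, for genes apart from THP1. From each other list up to 3 genes with the smallest p are named, and genes that did not move with their list were named after their values were seen. The members and lists were chosen with earlier results of these data known. Promoters came from RefSeq (GRCh38.p14), with 43 of the 50 genes matched by symbol. Text and plots used Python 3.11.15 and matplotlib 3.10.9. Alternatives covered the pseudocount, filter, scaling, trend, samples fitted, replicate block, promoter window and each library left out.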

Additional observations from a re-analysis of the deposited data

Results flagged for a closer look

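The response to doxycycline differed between B11 and THP1 by a test of the difference itself (limma, 3 against 3 plates in each line, Benjamini-Hochberg adjusted p under 0.05) in 50 of the 50 genes at 10 against 0 ug/ml and in 50 at 1 against 0 ug/ml. Of all genes tested, 29.8% were called at 10 ug/ml (16% higher and 13.8% lower). At 1 ug/ml the share was 25.9% (14.3% higher and 11.6% lower), and CDKN3 lost its call there in 10 of 28 settings. Among genes given plate by plate, the response of B11 minus that of THP1 at 10 ug/ml on the log2(FPKM + 1) scale was 3.80 for AURKB, 3.35 for NCAPH, 3.08 for SPC24, 3.07 for PLK1, 3.01 for CCNA2, 3.01 for HMMR and 2.85 for MAD2L1. It was 2.51 for UBE2C, 2.51 for KIF20A, 1.96 for INCENP, 1.91 for KIF4A, 1.60 for CENPE and 1.57 for CKS2. The smallest were those of SMC4 at 1.11, ECT2 at 0.95 and BUB3 at 0.90. The myeloid marker sum and the mitochondrial share also differed between treated and untreated B11, and their part in these differences was not tested.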

How the results depend on the processing

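The tests above were repeated under 28 other settings, 18 of which left out 1 library each. The number of the 50 genes called in B11 at 10 against 0 ug/ml was 49 to 50, at 1 against 0 ug/ml 50 throughout, and for untreated B11 against untreated THP1 49 throughout. The difference of responses between B11 and THP1 gave 50 throughout at 10 ug/ml and 48 to 50 at 1 ug/ml. No change of the 50 genes or of NRAS reversed its direction where it was called. The named genes of the other lists were not followed one by one through these settings. With 1 library left out, the calls at 10 against 1 ug/ml in B11 were 4 to 10 (10 without the untreated B11 plate A). Calls over all genes were then 1475 to 2351. For B11 against THP1 the calls were 18 to 26 at 1 ug/ml and 13 to 20 at 10 ug/ml. Over all genes they were 4217 to 5305 and 4771 to 5770. THP1 at 10 against 0 ug/ml had 0 to 2 (2 without the untreated B11 plate A, 1 without the untreated THP1 plate A), and 67 to 220 over all genes. The untreated B11 plate A is in no group of those comparisons and enters through the filter on low values and the shared spread. With the B11 plates B and C at 1 ug/ml both left out, the calls were 1 at 10 against 1 ug/ml and 11 for B11 against THP1 at 1 ug/ml; the lone plate is then assumed to vary like the other groups. In 100 bases around the start, CCAAT was in 9 genes and E2F in 2, a window smaller by construction. Plates with the same letter deviated together by correlations of -0.07 to 0.09 over 45 pairs, and 7 of 18 libraries correlated best with their own letter, so the letters do not pair the plates. With the letter as a replicate block the calls were 7 at 10 against 1 ug/ml, 22 for B11 against THP1 at 1 ug/ml and 20 at 10 ug/ml, and 50, 50, 49, 0, 0, 50 and 50 elsewhere. Over all genes the block gave 2082 calls at 10 against 1 ug/ml, and 5084 and 5562 for B11 against THP1 at 1 and 10 ug/ml. Depth limits genes near 1 FPKM most, of which CDC25A in untreated B11 is the lowest.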
